A study of Mus musculus with 8 samples.

Results

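The genes of the cytosolic ribosome were examined in 8 mouse melanomas, 7 that grew on after their oncogene had been switched off and 1 control in which it stayed on. Members were taken as genes whose symbol on the array is that of a numbered small-subunit (Rps) or large-subunit (Rpl) protein, with an optional a or x, or of a stalk protein (Rplp0 to Rplp2), and with a probe detected on at least 1 array. Of 56 genes with such a symbol, 53 were detected and are the members, among 10461 genes tested. They comprise 20 genes of the 40S (small) subunit, 31 of the 60S (large) subunit and 2 stalk genes. Rpl17, Rplp2 and Rps23 have probes that were detected on 0 of 8 arrays and were not tested.

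The resistant tumours are labelled NRASQ61R Off and the control NRASQ61R On. All came from FVB/n mice of the genotype DCT-TVA;Ink4a/Arf lox/lox, whose melanocytes carry an avian virus receptor under the Dct promoter and whose floxed Ink4a/Arf locus is deleted by virus-borne Cre. For the resistant tumours, cells producing avian leukosis viruses were injected under the skin of newborns to deliver Tet-off and TRE-NRASQ61R-IRES-Cre. Food with doxycycline, which shuts NRAS Q61R off, was given from a tumour volume of 1000 mm3, and the tumours regressed before resistance emerged, while mice of the other cohort stayed on standard feed; the labels give no age at collection. The control's description names NRAS-IRES-Cre without Tet-off, so its construct is not settled by the labels. The titles number 7 resistant tumours, but whether these grew in 7 mice is not labelled. Each p-value therefore rests on the spread among these tumours, which may not be independent of each other.

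Ribosomes are built from ribosomal RNA and ribosomal proteins in fixed proportions, and cells keep the production of these proteins coordinated. Growth signals do this through MYC, through the mTOR kinase and its S6 kinases, and through ERK and its RSK kinases, all of which lie downstream of RAS. The messenger RNAs carry a terminal oligopyrimidine (TOP), a C and a run of C or T at their very start, through which mTOR controls their translation. The comparison asks how these messages stand in tumours that grow without oncogenic NRAS.

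In the resistant tumours 11821 to 12851 probes were detected, against 12225 in the control. Precision is limited by there being only 8 arrays, of which 1 is the control. Every difference and every count of tumours above or below the control uses that same array. Agreement of the 7 resistant tumours against it is therefore not 7 independent comparisons. Of 9 melanocyte markers with a probe, Mitf, Tyr, Tyrp1, Dct, Mlana and Pax3 were detected on 0 arrays, so these defining pigment cell genes do not mark the tumours as melanoma here. The other 3 were detected, with a log2 summed intensity of 9.03 to 10.10 in the resistant tumours and 9.72 in the control. Resistant tumour 6 stood apart, with 11.6% of all genes at least 2-fold above the control, against 5.02% to 7.70% in the other 6, and the main counts are given below with and without it.

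The starts of the genes that the results turn on are shown first, as RefSeq places them on GRCm38.p6, because these bases carry the TOP signal. Each window holds 15 bases before and 15 from the annotated start, read 5′ to 3′ on the gene's strand. Capitals mark a C followed by at least 4 bases that are each C or T, beginning within 5 bases of the start, and where several such runs overlap or qualify, only the one that begins nearest to the start is marked.
Rps6 (chr4:86857353-86857382, minus strand): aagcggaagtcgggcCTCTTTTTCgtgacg
Rps7 (chr12:28635939-28635968, minus strand): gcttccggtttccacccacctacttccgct
Rps2 (chr17:24720048-24720077, plus strand): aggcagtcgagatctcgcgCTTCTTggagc
Rpl22 (chr4:152324421-152324450, plus strand): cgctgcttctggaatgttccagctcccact
Rps9 (chr7:3704026-3704055, plus strand): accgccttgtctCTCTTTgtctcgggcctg
Rps24 (chr14:24490663-24490692, plus strand): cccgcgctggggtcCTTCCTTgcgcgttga
Rpl36a (chrX:134585639-134585668, plus strand): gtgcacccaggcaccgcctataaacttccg
The first 5 genes read higher in every resistant tumour than in the control on the probe used, and the last 2 read lower in every one. Of 45 members with a start in the RefSeq table, 10 (22.2%) had such a run exactly at the start, against 3.01% of all 27025 genes, and 22 (48.9%) had one within 5 bases, against 21.2% of all genes. Only the transcribed strand was searched. The run stood exactly at the start in 4 of 18 members that lay above the control in all 7 tumours and in 6 of 27 others, so its share was 22.2% in both. A match describes these letters and is not evidence of a working signal, and the lack of a match is not evidence that the message has none.

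No ribosomal protein gene passed the test, and more of them lay above the control than below it: the mean of the resistant tumours was higher in 35 and lower in 18. Over all 10461 genes that mean was higher in 5033 and lower in 5428. With limma, 0 of 53 members passed as higher, where 0.00956% of all genes did, and 0 passed as lower, where 0.210% did. At an unadjusted p under 0.05, 7 members were higher, where 2.86% of all genes were, and 0 lower, where 5.35% were. The mean of the resistant tumours lay at least 2-fold above the control in 5 members (Rps6, Rps7, Rpl22, Rps2 and Rpl30), against 3.88% of all genes. It lay at least 2-fold below the control in 0 members, against 602 of all 10461 genes. All 7 resistant tumours lay above the control in 20 members (37.7%), where 13.3% of all genes did so. All 7 lay below it in 2 members, Rps24 and Rpl36a, where 17.0% of all genes did so. The median difference was 0.11 on the log2 scale over the members and -0.02 over all genes, and the members' median turned to -0.0022 under median scaling.

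These counts moved with the scaling between arrays. Under median scaling, which shifted the median of all genes to -0.20, 10 of the 20 members stayed above the control in all 7 tumours, where 8.35% of all genes did. They were Rps6, Rps7, Rps2, Rps9, Rps4x, Rps15a, Rpl22, Rpl30, Rpl21 and Rpl9. The members' median then stood 0.20 above that of all genes, against 0.13 under quantile normalization. Cyclic loess placed 27 members above the control in each resistant tumour, which include the same 20, where 15.4% of all genes did so. Leaving out a tumour can only keep or raise the counts above or below the control in every remaining tumour, so it cannot test them. Without resistant tumour 6 the number above the control in every remaining tumour was 20, where 16.4% of all genes were. The number below it was 2, where 20.8% of all genes were. The number below it was 4 without tumour 1 and 4 without tumour 5, where 20.4% and 18.3% of all genes were.

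In bulk tissue, fewer cells of a type and less RNA per cell cannot be told apart, and the summed levels of the markers of other cells are therefore given. The log2 summed intensity of 13 macrophage and myeloid markers, all 13 of them detected, was 14.28 to 14.97 in the resistant tumours and 13.84 in the control. That of 16 skeletal muscle markers, with Myh7 not detected, was 9.78 to 15.88 in the resistant tumours and 9.70 in the control. That of 8 endothelial markers, all detected, was 11.20 to 12.47 in the resistant tumours and 12.77 in the control. For 3 of 6 adipocyte markers, with Fabp4, Plin1 and Retn not detected, it was 6.36 to 9.40 in the resistant tumours and 6.35 in the control. By these adipocyte markers tumour 6, the lowest, was nearly level with the control. The other types overlapped the control. The 8 detected of 9 fibroblast markers, without Postn, had 13.21 to 15.51 in the resistant tumours, lowest in tumour 6, and 15.49 in the control. The 6 detected of 10 lymphocyte markers, without Cd4, Cd8a, Jchain and Ms4a1, had 11.70 in tumour 1 and 7.86 to 9.08 in the other 6, against 9.15 in the control. All 4 erythrocyte markers were detected, with 7.70 in tumour 6 and 12.52 to 14.54 in the other 6, against 13.35 in the control. The 2 detected of 8 keratinocyte markers, with Krt5 and Krt14 among the undetected, had 8.15 to 9.66 in the resistant tumours and 8.71 in the control. The part of these cells in the difference of the ribosomal protein genes was not tested.

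Raw intensity, before any correction, was compared as a share of each array. Together, the probes used for the 53 members, 1 for each gene, held 5.44% to 6.94% of the summed raw intensity of an array in the resistant tumours. They held 4.89% in the control. Other probes of the same genes are not counted in this share. The highest shares were those of resistant tumours 5 and 3, at 6.94% and 6.86%, and by this share every resistant tumour lay above the control. By the members' median raw intensity 5 of 7 did, with 13830.3 in tumour 1 and 14921.2 in tumour 6 below the control's 15487.4, and 15996 to 19688.6 in the other 5.

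**Figure D1:**
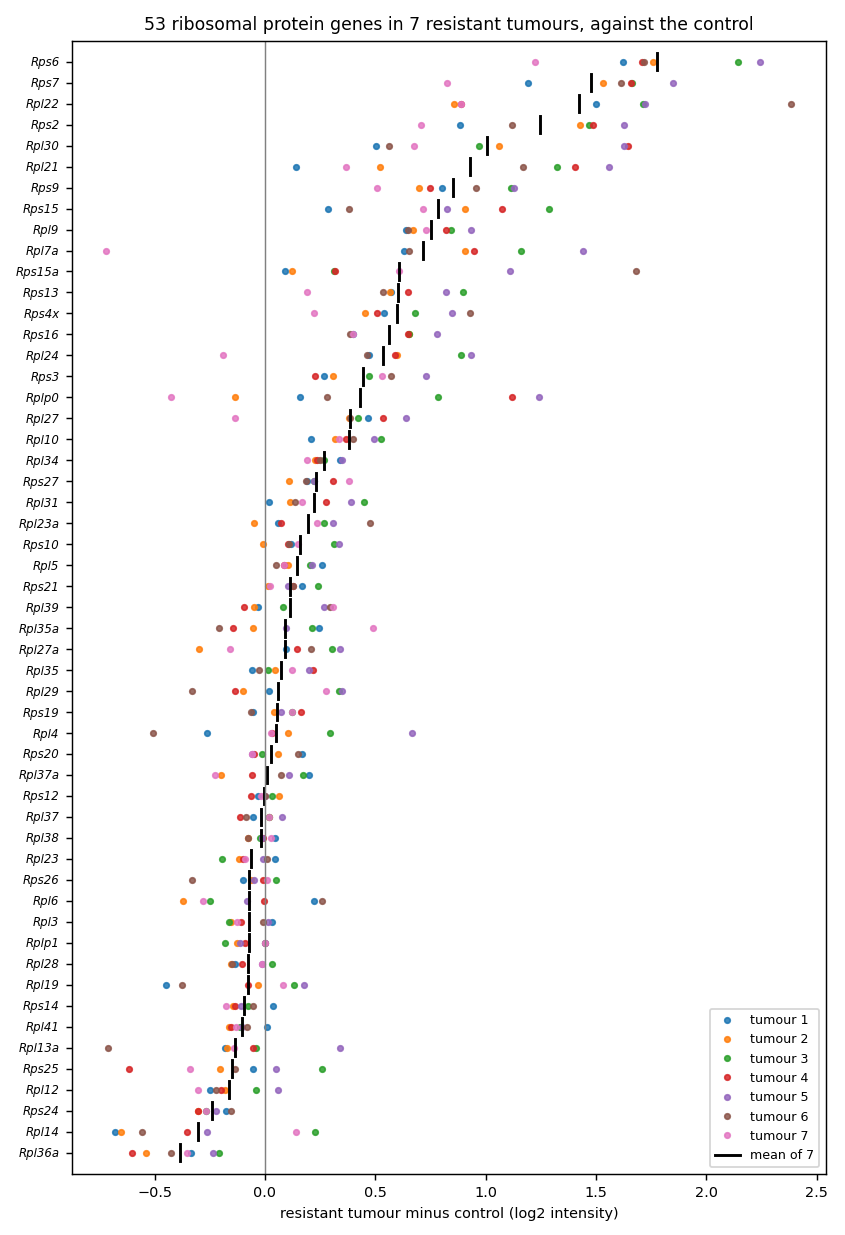
Difference of each of the 7 resistant tumours from the control (x axis, log2 intensity) for each of the 53 ribosomal protein genes (rows, ordered by the mean of the 7, black bar; colours, tumours). Differences of the mean run from -0.39 for Rpl36a to 1.77 for Rps6, and most genes lie close to 0.

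The largest mean differences were those of Rps6 and Rps7 of the small subunit, followed by Rpl22 of the large subunit. Of 20 genes of the 40S subunit, 12 (60%) lay above the control in each of the 7 tumours and 1 (5%) below it in each, beside 13.3% and 17.0% of all genes, with a median difference of 0.34. Rps6 encodes the protein that S6 kinases and RSK phosphorylate when growth signals are active. It read 13.17 in the lowest, 13.66 in the median and 14.19 in the highest resistant tumour, against 11.94 in the control. Every resistant tumour therefore lay more than 1 log2 unit above the control, with tumour 7 nearest to it and tumours 5 and 3 farthest. The mean difference was 1.77 (SE 0.36, 3.42-fold, adjusted p = 0.155), the smallest adjusted p among the members. In raw intensity Rps6 had 9553.1 to 18739.1 in the resistant tumours and 4899.8 in the control.

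Rps7, a small-subunit protein that also binds the p53 regulator MDM2, read 13.35, 14.14 and 14.37 in the lowest, median and highest resistant tumour, against 12.52 in the control. The difference was 1.48 (SE 0.37, adjusted p = 0.289), with tumour 7 again the lowest and tumour 5 the highest. Rps2, which lines the entry channel for messenger RNA, read 13.55, 14.27 and 14.47 in the resistant tumours, against 12.84 in the control. Its difference was 1.25 (SE 0.37, adjusted p = 0.397). Neither gene's groups overlapped.

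The other small-subunit genes named differed by less. The brighter Rps9 probe gave a difference of 0.85 (SE 0.28, adjusted p = 0.443). Rps15, a protein of the subunit's head, differed by 0.78 (SE 0.37), Rps13 by 0.60 (SE 0.28) and Rps16 by 0.56 (SE 0.24), with adjusted p from 0.603 to 0.626 for the last 3. All 4 lay above the control in 7 of 7 tumours. Rps15a, on a dim probe, read 6.13 to 7.72 in the resistant tumours and 6.04 in the control. Tumour 6 had the highest Rps15a value.

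At the other end stood Rps24, a protein that takes part in processing the small subunit's RNA and is mutated in human Diamond-Blackfan anaemia. It read 14.45, 14.49 and 14.60 in the lowest, median and highest resistant tumour, against 14.75 in the control, a difference of -0.24 (SE 0.19, adjusted p = 0.796). Its 7 resistant values spanned a narrow range below the control. Under cyclic loess its difference was 0.01, on the other side of 0. Rps12 was the steadiest member, at 14.83 to 14.95 in the resistant tumours with an SD of 0.041, and 14.89 in the control. Rps14 and Rps25 differed by -0.09 (SE 0.20) and -0.15 (SE 0.31), with the control inside the range of the resistant tumours for both. Rps14 stood on the other side of 0 under cyclic loess, at 0.18.

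**Figure D2:**
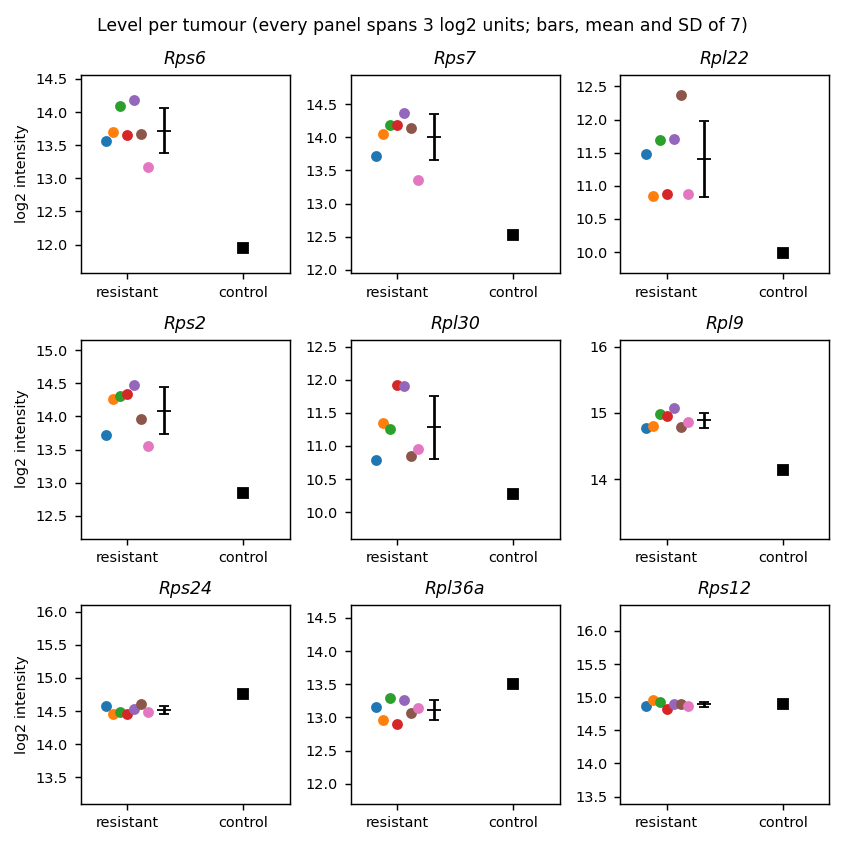
Levels of 9 ribosomal protein genes (y axis, log2 intensity, the same span in every panel) in the 7 resistant tumours (circles, tumours 1 to 7 from left to right, with mean and SD) and in the control (square). Rps6, Rps7, Rpl22, Rps2, Rpl30 and Rpl9 lie above the control in every resistant tumour, Rps24 and Rpl36a below it, and Rps12 at its level.

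Large-subunit genes had smaller differences by count and median, and the difference between the subunits was not tested. The probes of the subunits fall unevenly into the brightness groups given below, and the part of brightness in this difference was not tested. Of 31 genes of the 60S subunit, 8 (25.8%) were above the control in each resistant tumour and 1 (3.23%) was below it in each, beside the same shares of all genes, with a median difference of 0.07. Rpl22, which in mice is needed for T cell development and restrains its own paralog, read 10.84, 11.48 and 12.37 in the lowest, median and highest resistant tumour, against 9.99 in the control. Tumour 6 had the highest value, and the difference was 1.42 (SE 0.55, adjusted p = 0.562). Rpl30, a protein at the interface of the subunits, read 10.78, 11.25 and 11.93 in the resistant tumours, against 10.28 in the control, with tumours 4 and 5 at the top. Its difference was 1.01 (SE 0.47, adjusted p = 0.621). Rpl9 varied little among the resistant tumours, at 14.77, 14.86 and 15.07, against 14.14 in the control. Its difference was 0.75 (SE 0.21, adjusted p = 0.371), with an SD of 0.113 between resistant tumours. Tumour 5, in which Rpl9 was the brightest probe, stood at the top of the scale.

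Rpl7a and Rpl21 varied most among the resistant tumours in this subunit, together with Rpl22. Rpl7a read 10.23 in tumour 7 and 11.58 to 12.40 in the other 6, against 10.95 in the control, so the groups overlapped through tumour 7 alone. Rpl21 read 6.72 to 8.14 in the resistant tumours and 6.58 in the control. Rpl34 lay at 13.92 to 14.07 in the resistant tumours and 13.73 in the control, a difference of 0.27 (SE 0.19) with an SD of only 0.058.

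Rpl36a, a protein near the exit site of transfer RNA, was the 60S gene below the control in all 7 tumours. It read 12.90, 13.15 and 13.29 in the lowest, median and highest resistant tumour, against 13.50 in the control, a difference of -0.39 (SE 0.23, adjusted p = 0.708). Rpl12, at the base of the stalk, differed by -0.16 (SE 0.22), Rpl13a, which in human cells is also released from the ribosome after interferon, by -0.14 (SE 0.34), Rpl41 by -0.11 (SE 0.19) and Rpl28 by -0.08 (SE 0.20), each with 6 of 7 tumours below the control. Rpl12, Rpl41 and Rpl28 lay on the other side of 0 under cyclic loess, at 0.06, 0.17 and 0.17. Rpl38, which in mice steers the translation of Hox messages, differed by -0.02 (SE 0.19), and by 0.21 under cyclic loess. Rpl14 and Rpl6 were detected on only 3 and 2 arrays, the control among them for Rpl14 and not for Rpl6, so their values of 4.60 to 5.50 and 4.61 to 5.24 in the resistant tumours lie near the detection limit.

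The stalk recruits the elongation factors, with Rplp0 as the anchor for Rplp1 and Rplp2. Rplp0 read 9.28, 9.99 and 10.95 in the lowest, median and highest resistant tumour, against 9.71 in the control, and had the second-largest spread of all members after Rpl7a (SD 0.633). Tumours 4 and 5 were high and tumours 2 and 7 below the control, and the difference was 0.43 (SE 0.60, adjusted p = 0.905). Rplp1 was at the highest value of the normalized scale, 15.07, in resistant tumours 1, 6 and 7 and in the control. The lowest resistant tumour read 14.89. Rplp1 was the brightest probe on those 4 arrays, so quantile normalization gives all 4 the same value and a difference there cannot be read.

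The bright end of the scale limits what these arrays can show for this family. Of the 53 members, 39 have probes above the 99th percentile of mean raw intensity of all probes. Probe signal is not a measure of one gene's abundance against another's. The 17 members with the brightest probes, at a mean of 14.41 or more, had a median absolute difference of 0.07 and a median SD between resistant tumours of 0.083. The 18 next, at 13.55 to 14.39, had 0.33 and 0.176, and the 18 dimmest, at 4.92 to 13.50, had 0.35 and 0.354. In these groups 2, 13 and 5 members lay above the control in all 7 tumours (11.8%, 72.2% and 27.8%, beside 13.3% of all genes). Whether the small differences of the brightest probes come from saturation was not tested. With the 39 very bright members left out, 4 of the remaining 14 lay above the control in all 7 tumours, where 13.2% of the genes then tested did, with a median difference of 0.07.

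**Figure D3:**
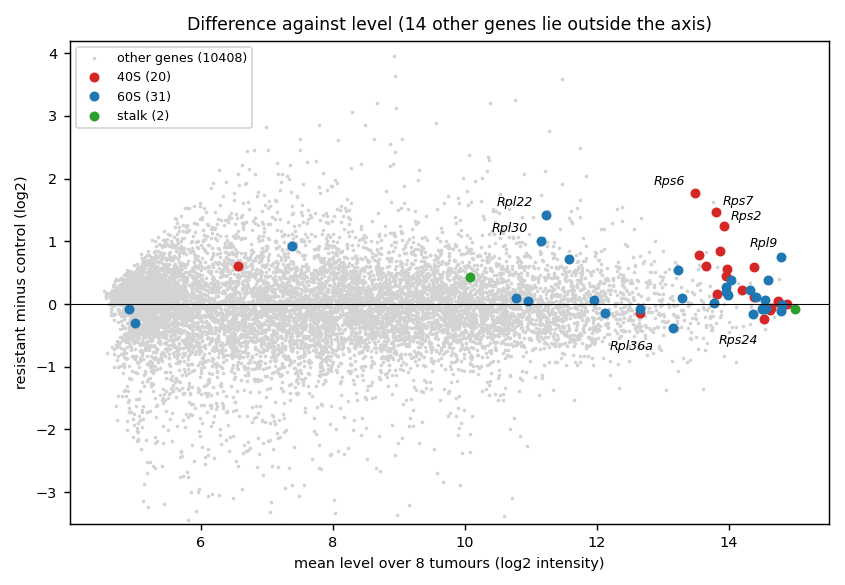
Difference between the mean of 7 resistant tumours and the control (y axis, log2) against mean probe signal over 8 tumours (x axis, log2 intensity) for 20 small-subunit, 31 large-subunit and 2 stalk genes over 10408 other genes (grey), of which 14 lie outside the axis. Members crowd at the bright end, where the brightest 17 have a median absolute difference of 0.07.

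More than 1 probe was detected for 10 members, which gives a second reading of the same messages. Rps3, a protein of the messenger entry site with a further role in DNA repair, lay above the control in all 7 tumours on both probes, by 0.44 on the brighter and 1.15 on the dimmer. On the dimmer probe it read 12.43 to 13.21 in the resistant tumours and 11.59 in the control. Rpl31 differed by 0.22 and 0.43 and Rpl21 by 0.93 and 0.50 on their probes. On the second Rpl21 probe tumour 1 lay below the control, at 6.17 against 6.92, so all 7 tumours were above it on only 1 of the probes. Rps24 differed by -0.24 and -0.40, although tumour 5 lay above the control on the dimmer probe, at 10.62 against 10.08. Probes differed in sign for 3 members. Rps9 gave 0.85 on its brighter probe and -0.18 on the dimmer, which read 12.15 to 12.86 in the resistant tumours and 12.69 in the control. Rpl23, another protein that binds MDM2, differed by -0.07 and -0.34 on its bright probes and by 0.20 on a dimmer one, and the brightest gave 0.21 under cyclic loess. Rpl27a differed by 0.09, or by -0.25 under median scaling, and by -0.44 on a probe detected on 2 arrays. Where in its transcript a probe lies is not known here.

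**Figure D4:**
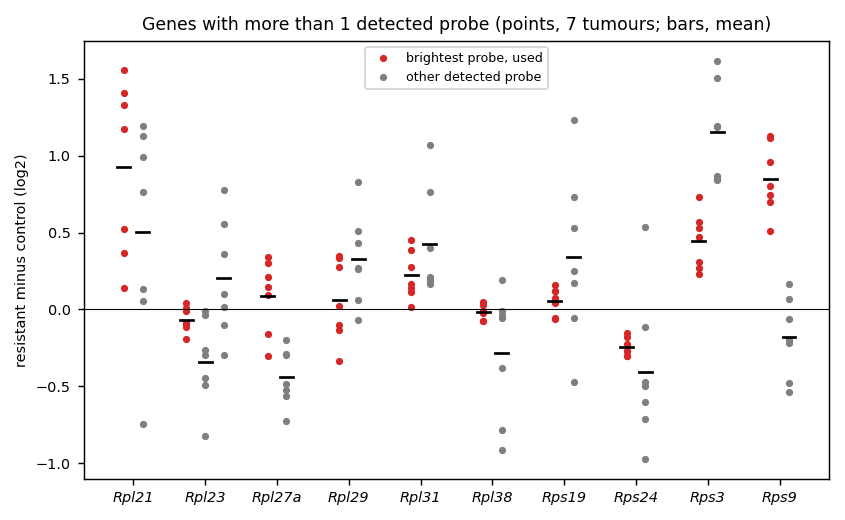
Difference of each resistant tumour from the control (y axis, log2) for the 10 ribosomal protein genes with more than 1 detected probe, with the brightest probe in red, the others in grey and the mean of 7 tumours as a bar. Both Rps3 probes lie above 0 in every tumour, and the Rps9 probes lie on opposite sides.

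Among the resistant tumours, the ribosomal protein genes read highest in tumours 5 and 3. The median SD over the 7 tumours was 0.176 for the members and 0.350 for all genes, and 43 of 53 members lay below the median of all genes. The brightest members also had the smallest spreads, as given above, and the part of brightness in the difference from all genes was not tested. Tumour 5 had the highest level of 21 members, tumour 3 of 10 and tumour 1 of 9, while tumour 7 had the lowest of 14, tumour 2 of 11 and tumour 1 of 10, so tumour 1 was often at either end. The members' median difference from the control was 0.31 in tumour 5 and 0.26 in tumour 3, and from 0.04 in tumour 2 to 0.14 in tumour 6 among the others. Relative to the median of all genes, tumours 5 and 3 also stood highest without background correction, under median scaling, under cyclic loess and with the deposited normalized values. The first and last of these gave nearly the same values, 0.34 in tumour 5 and 0.27 in tumour 3, so they are not separate checks. Under median scaling tumour 6 stood at -0.02 relative to the median of all genes.

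Some ribosomal protein genes and paralogs fall outside the symbol rule. Fau, which encodes a ubiquitin-like fusion with a small-subunit protein, read 13.74 to 14.22 in the resistant tumours and 13.56 in the control, above it in 7 of 7 (difference 0.47, SE 0.24, adjusted p = 0.655). Rpsa, also known as the laminin receptor, differed by 0.13 (SE 0.29) and Rps3a1 by -0.12 (SE 0.43). Among 6 paralogs measured, Rpl36al stood at 13.47 to 13.69 in the resistant tumours and 13.00 in the control, a difference of 0.63 (SE 0.20, adjusted p = 0.423). Rpl36a, whose protein it closely resembles, differed by -0.39, and whether each probe also binds the other gene's message was not tested. Rpl22l1 read 7.41 in tumour 7 and 5.99 to 6.56 in the other 6, against 6.62 in the control. Rps27l, a p53 target, read 13.03 in tumour 6 and differed by -0.37 on average (SE 0.37). The brighter Rpl7l1 probe differed by 0.19 (SE 0.22), or by -0.15 under median scaling, and the other by -0.59. Rpl39l was detected in tumour 5 alone.

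Rpl3l, the form of Rpl3 found in striated muscle, read 9.25 in resistant tumour 1 and 6.60 in tumour 2, and 4.60 to 5.45 in the other 5, against 5.70 in the control. The same 2 tumours had the highest skeletal muscle markers, with Acta1, the actin of muscle fibres, at 14.15 and 12.17, against 5.99 in the control. Rpl3 itself differed by -0.07 (SE 0.20). The part of muscle tissue in the Rpl3l values was not tested.

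The translation factors and other TOP messages included the gene with the largest difference among the companion lists. Of 20 measured, 0 passed the test, 6 (30%) were above the control in each resistant tumour and 2 (10%) below it in each, beside 13.3% and 17.0% of all genes, with a median difference of 0.08. Eef2, the factor that moves the ribosome along the message, read 8.89, 11.13 and 12.12 in the lowest, median and highest resistant tumour, against 7.58 in the control. Tumour 7 was lowest and tumour 1 next, as for Rps6, Rps7 and Rps2, and tumour 3 was highest. The difference was 3.20 (SE 0.99, 9.22-fold, adjusted p = 0.417), and its other 2 probes gave 3.07 and 3.21. Hnrnpa1, an RNA-binding protein whose message carries a TOP, differed by 1.64 (SE 0.78), and by 0.79 on its dimmer probe. Btf3, which binds nascent chains at the ribosome, differed by 0.56 (SE 0.24). Both lay above the control in 7 of 7.

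Of 44 genes of ribosome biogenesis measured, 0 passed the test. In each resistant tumour 5 (11.4%) were above the control, where 13.3% of all genes were, and 13 (29.5%) below it, where 17.0% of all genes were. By the mean, 19 were higher and 25 lower, beside 5033 and 5428 of all genes, with a median difference of -0.19. Nop58, a core protein of the particles that methylate ribosomal RNA, read 8.86 to 9.81 in the resistant tumours and 10.87 in the control (difference -1.35, SE 0.36, adjusted p = 0.329). Heatr1, which serves the transcription and processing of ribosomal RNA, differed by -1.37 (SE 0.59) and Nop14, of the small-subunit processome, by -0.65 (SE 0.26). Tumour 6 had the lowest median of the list, -0.62, and tumour 7 the highest, 0.05. Mitochondrial ribosomal protein genes, which serve a separate ribosome, had a median difference of 0.12 over 71 genes, of which 0 passed, 16 (22.5%) were above the control in each resistant tumour and 9 (12.7%) below it in each, beside those shares of all genes. Mrpl9, Mrpl3 and Mrpl53 had the smallest p, with differences of 1.19, 1.11 and 1.11 and adjusted p from 0.279 to 0.301, and a dimmer Mrpl3 probe gave 2.04.

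Of 19 regulators of ribosomal protein synthesis measured, 0 passed, 2 (10.5%) were above the control in each resistant tumour and 8 (42.1%) below it in each, beside 13.3% and 17.0% of all genes. Sesn1, a stress-induced inhibitor of mTOR complex 1, read 9.28 to 10.01 in the resistant tumours and 8.45 in the control (difference 1.08, SE 0.29, adjusted p = 0.334). Rps6ka3, the ERK-activated kinase RSK2 that phosphorylates Rps6, read 6.81 to 7.59 in the resistant tumours and 8.06 in the control (difference -0.88, SE 0.30, adjusted p = 0.492). Deptor, a protein that binds and inhibits mTOR, differed by -1.02 (SE 0.37) on its brighter probe and by 0.39 on one detected on 2 arrays. For all 3 genes, on the brighter probe, the resistant tumours and the control did not overlap.

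**Figure D5:**
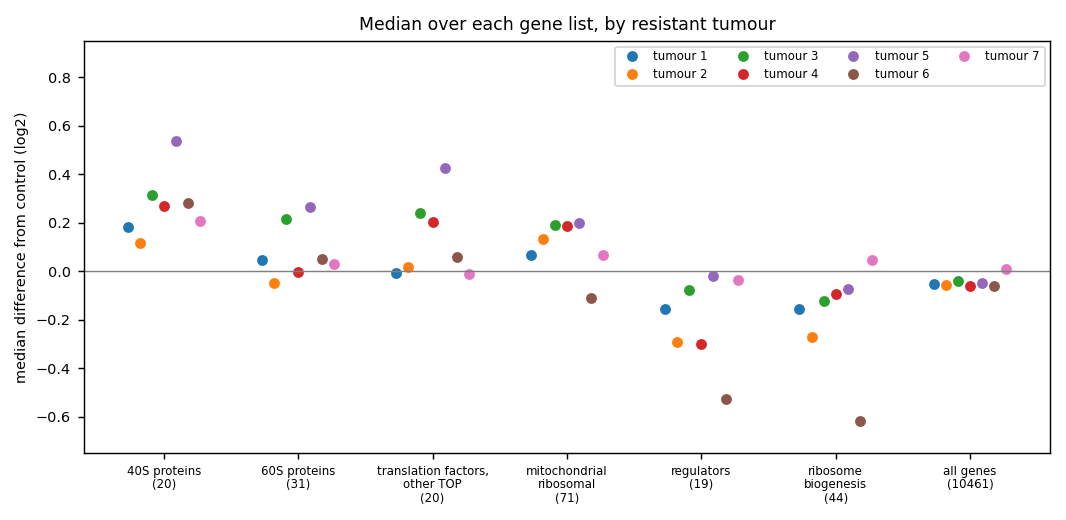
Median difference from the control (y axis, log2) over each gene list (number of genes in brackets) in each of the 7 resistant tumours (colours). The 40S list lies above 0 in all 7 tumours and the regulators below it, and the ribosome biogenesis genes of tumour 6 have the lowest median, -0.62.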

How the data were processed

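Per the labels' protocols, biotin-labelled RNA of 8 mouse melanomas was hybridised to Illumina bead arrays, with 1 array for each. The deposited intensity of each probe and its detection p-value come from a table that the file headers call non-normalized, and the submitters' processing notes name GenomeStudio without a version. A table of the authors' normalized intensity was used only as an alternative, and no source here names how it was normalized. Its array medians of 90.4 to 90.7, close to those of the raw intensities, are those of a linear scale with no centring on genes. In that table Rplp1 in the control and resistant tumours 1, 6 and 7 and Rpl9 in tumour 5 share the value 34427.8. Quantile normalization gives such shared values. The array intensities lie between 46.7 and 38501.9. Groups came from the sample titles.

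Intensities were background corrected with limma's neqc from the detection p-values (offset 16), quantile normalized and log2 transformed. A probe was kept (15067 of 25697) where its detection p fell under 0.05 on at least 1 array. Genes took their symbols from the platform annotation, updated by gene ID through the RefSeq table of GRCm38.p6 (23962 probes), and the probe of highest mean stands for each of 10461 genes. Of all probes 23978 have 1 gene symbol, 0 have several and 1719 have none.

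limma's lmFit and eBayes gave the two-sided test of 7 resistant tumours against 1 control, with Benjamini-Hochberg adjustment over all 10461 genes and a threshold of 0.05. All adjusted p-values are limma's. With 1 control, all 6 residual degrees of freedom are those of the resistant tumours, and the control is assumed to vary as they do. The members, the 6 companion gene lists and the tests were chosen with earlier results of these data known, so no list is independent evidence. Named members are up to 10 per direction with the smallest p, the 5 most and 5 least variable, the 3 brightest and 3 dimmest, those whose detected probes differ in sign by over 0.5, the stalk genes and Rps6. Rps3, Rpl31, Rpl3, Rps3a1 and Acta1 fall outside this rule and were named after their values were seen. From each companion list the 3 genes with the smallest p were named, and all measured paralogs and genes outside the symbol rule. Gene lists are described by counts and medians. The 18 alternatives covered background, normalization, offset, detection filter, variance model, probe rule, very bright probes and leaving out each resistant tumour. The columns name no chip or position, so no batch could be tested. On 20 simulated sets of 10461 genes, 7.16% of genes changed 2-fold were recovered, 52.7% of those changed 4-fold and 86.7% of those changed 16-fold. Each simulated gene varied independently of the others, with its SD over the resistant tumours, and the control varied alike. These shares need not hold for real arrays, where genes can vary together. R 4.3.3 and limma 3.58.1 were used.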

Additional observations from a re-analysis of the deposited data

Results flagged for a closer look

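Among 60 named genes and list medians, 8 had 1 resistant tumour far from the other 6 by Dixon's ratio, which chance gives in about 1 of 20 groups. Many of the genes were named for their p or spread over these same tumours, so the 8 cannot be set against that rate. Tumour 7 was low for Rpl7a (10.23, with the others at 11.58 to 12.40) and Rpl36al (13.47, with the others at 13.61 to 13.69) and high for Rpl22l1 (7.41, with the others at 5.99 to 6.56). Tumour 1 was high for Rpl3l (9.25, with the others at 4.60 to 6.60) and Deptor (7.18, with the others at 6.12 to 6.45, and 7.44 in the control). Tumour 5 was high for Rpl39l (5.79, with the others at 4.43 to 4.68, which were not detected). Tumour 6 was high for Sesn1 (10.01, with the others at 9.28 to 9.59) and had the lowest median of the mitochondrial ribosomal protein genes (-0.11, with the others at 0.07 to 0.20).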

How the results depend on the processing

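No member tested passed under any of the 18 alternatives run, of which leaving out very bright probes tested only 14 members and detection on all arrays 51. Of all genes tested, only 0.0273% to 0.554% passed under these alternatives. Over the 17 alternatives that kept it, Rps6 differed by 1.52 to 1.87, with limma adjusted p from 0.0942 to 0.355. The median difference of the members was -0.0022 under median scaling and 0.29 under cyclic loess, and from 0.09 to 0.14 when 1 resistant tumour was left out. Members above the control in every resistant tumour numbered 10 under median scaling, where 8.35% of all genes did so. They numbered 4 of 14 with very bright probes left out, beside 13.2% of all genes. When 1 resistant tumour was left out they numbered 20 to 23, beside 14.1% to 16.4%. Such a step can only keep or raise this count and the count below the control. Members below the control in every resistant tumour numbered 6 under median scaling, 1 under cyclic loess and 1 with detected probes averaged. The shares of all genes below it were then 28.1%, 17% and 16.1%. With very bright probes left out the number below was 0, beside 17% of all genes. When 1 resistant tumour was left out it was 2 to 4, beside 17.4% to 20.8%. Under cyclic loess the sign turned for Rpl12 (0.0614), Rpl23 (0.21), Rpl28 (0.17), Rpl38 (0.21), Rpl41 (0.17), Rplp1 (0.0744), Rps12 (0.27), Rps14 (0.18) and Rps24 (0.0089). With the dimmest detected probe it turned for Rps9 (-0.18), Rpl23 (0.20), Rpl27a (-0.44), Rpl7l1 (-0.59) and Deptor (0.39), with the mean of probes for Rpl27a (-0.17) and Rpl7l1 (-0.20), and under median scaling for Rpl27a (-0.25) and Rpl7l1 (-0.15). When 1 resistant tumour was left out, Rpl39l ranged from -0.0715 to 0.15, Rpl3l from -0.45 to 0.33 and Rps12 from -0.0134 to 0.0076. None of these values passed the test, and the cause of each turn was not tested beyond the change of probe or sample itself. No paired analysis was possible because there is only 1 control, and no label pairs it with a resistant tumour.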
